A study of Arabidopsis thaliana with 6 samples.

Results

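The transcripts described here are those of the mitochondrial genome of Arabidopsis thaliana, taken as every locus of the deposited table whose code starts with ATMG, 31 of 20777 loci. They were measured in seedlings that express the transcription factor gene GRF5 from the strong, broadly active 35S promoter (35S::GRF5, 3 arrays) and in wild-type seedlings (3 arrays). Both groups were of ecotype Col-0, and RNA came from the vegetative part of plants at growth stage 1.03, grown in vitro on MS medium at 22 °C under days of 16 h light and nights of 8 h. The labels speak of biological repeats and of a single overexpressing line, and the sources used here do not say how many plants went into a sample. Transcripts were read on ATH1 arrays, which carry short oligonucleotide probes, and the values are on the log2 scale.

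The mitochondrial genome of flowering plants encodes a small set of proteins: subunits of the respiratory chain complexes and of the ATP synthase, factors for cytochrome c maturation, some ribosomal proteins and a maturase. It also holds many open reading frames with no known product. Its genes are transcribed by nucleus-encoded polymerases of the phage type, and their RNA is spliced and edited by nucleus-encoded proteins, so both genomes build the respiratory chain. In plant mitochondria a poly(A) tail marks RNA for decay and is not a stable feature of messengers. The labels name a standard Affymetrix labelling protocol, and the sources used here do not say whether it primed from poly(A).

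None of the 31 codes was found in the reference table used here, which lists 33 protein-coding mitochondrial genes under other identifiers. Loci are therefore given by code, with no gene name, product or sequence. A list of mitochondrial genes of known product, written for this work from general knowledge, held 40 codes, of which 9 were in the table. The other 22 loci of the table were not on that list.

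The overexpressed gene read as the labels say. GRF5 had values of 11.34, 11.42 and 12.08 in 35S::GRF5 replicates 1 to 3 and of 4.73, 4.75 and 4.26 in wild-type replicates 1 to 3, a difference of 7.03. The leaf gene RCA, which encodes Rubisco activase and was the 1 of 3 leaf markers looked for that the table holds, read 14.09 to 14.24 over the 6 arrays. Array medians over all loci were 6.41 to 6.43 in 35S::GRF5 and 6.38 to 6.39 in wild type. The root mean square deviation of an array from its group mean, over all loci, was 0.126 to 0.162 in 35S::GRF5, highest in replicate 1, and 0.101 to 0.137 in wild type.

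The mitochondrial loci read low on these arrays. Their means over the 6 arrays ran from 3.82 at ATMG00130 to 6.37 at ATMG00660, with a median of 4.56. The median of all loci was 6.40, and 0 of the 31 means reached it. The 25th percentile of all loci was 4.38, and 12 of the 31 means fell below that value. Probes differ in how well they bind, so these positions describe signal in the array's range and not the amount of one transcript against another. No detection calls were used, and a value at the low end cannot be separated from background. Single values ranged from 3.64 at ATMG00130 in wild type replicate 1 to 6.67 at ATMG01220 in the same array.

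**Figure D1:**
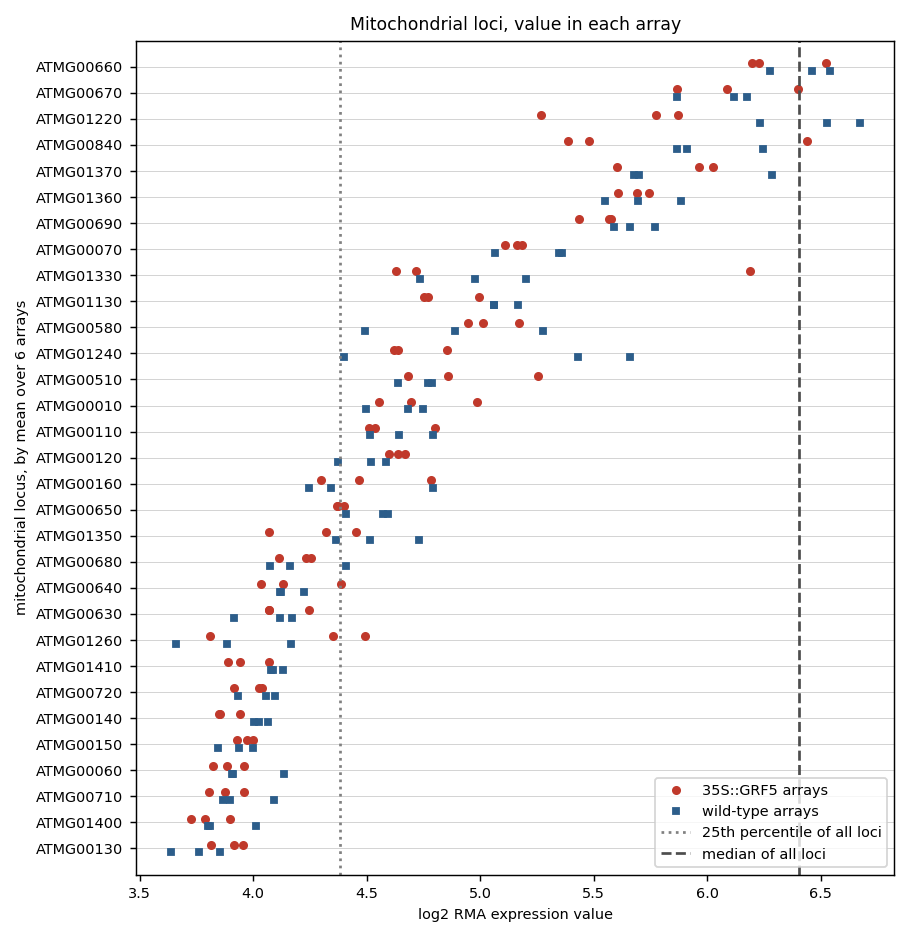
Log2 expression value (horizontal axis) of each of the 31 mitochondrial loci (vertical axis, ordered by mean) in each array, with 35S::GRF5 arrays as red circles and wild-type arrays as blue squares. The dotted and dashed lines mark the 25th percentile (4.38) and the median (6.40) of the mean levels of all loci, and the wild-type values of ATMG01220 lie to the right of its 35S::GRF5 values.

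No mitochondrial locus passed the test between 35S::GRF5 and wild type. With limma across all loci and Benjamini-Hochberg adjustment at a threshold of 0.05, 0 of 31 loci were higher and 0 were lower in 35S::GRF5, beside 0.284% of all loci called higher and 0.486% called lower (0.77% together). The called loci split into 59 higher and 101 lower, and into 45 and 126 with arrays centred on their medians. At an unadjusted p under 0.05 in limma there were 2 of 31, both lower, where all loci gave 15.5% in either direction, 9.49% higher and 5.97% lower. Differences in log2 units, 35S::GRF5 minus wild type, ran from -0.84 to 0.32 with a median of -0.03, against a median of 0.02 over all loci. A positive difference was found at 12 of 31 loci, or 38.7%, and at 56.2% of all loci. These shares of all loci were not matched to the low level of the mitochondrial loci. The median difference was 0.039 over loci above the 25th percentile of level and 0.048 over those above the median level. RNA of the whole vegetative part mixes its cells. A difference in the number of mitochondria or cells of a kind and one in the RNA of each cannot be told apart.

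The intervals show how large a difference in array signal could have gone unseen. At loci whose signal cannot be separated from background, they do not bound a change in the RNA itself. Of the 31 means, 12 lay below the 25th percentile of all loci. The 95% interval of a mitochondrial locus extended by a median of 0.24 log2 units each way (1.18-fold) and at most 0.77 at ATMG01330. For 29 of 31 loci the interval lay inside a 2-fold change in either direction, and for 26 inside a 1.5-fold change. The loci whose interval went beyond 2-fold were ATMG01220 and ATMG01240, both on the lower side. Simulated data were normal values with limma's moderated spread, changed at randomly chosen loci of the whole set. There 60% of differences of 0.5 log2 units and 99.6% of those of 1 were called. Differences of 0.5 were thus often not called with 3 arrays a group, and smaller ones were not simulated. The shares need not hold for the mitochondrial loci, of which 7 of 31 had a spread above the 95th percentile of all loci.

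**Figure D2:**
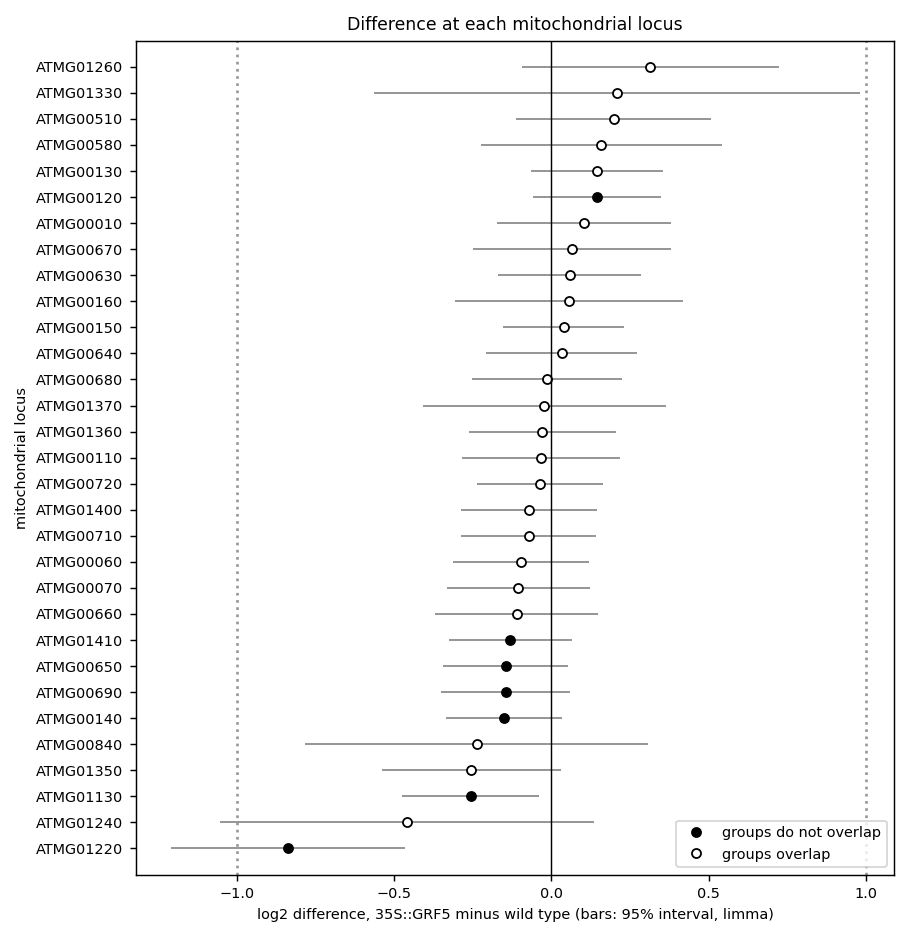
Log2 difference, 35S::GRF5 minus wild type (horizontal axis), of each mitochondrial locus (vertical axis), with limma's 95% interval as a bar and dotted lines at a 2-fold change. Filled circles mark the 7 loci whose groups do not overlap, and ATMG01220, at -0.84, has the lowest difference and an interval of -1.21 to -0.47.

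ATMG01220 differed most between the groups. It read 5.78, 5.27 and 5.87 in 35S::GRF5 replicates 1 to 3 and 6.67, 6.53 and 6.23 in wild-type replicates 1 to 3. Each 35S::GRF5 array thus lay below each wild-type array, with a gap of 0.36 between the nearest values of the groups. The group means were 5.64 ± 0.32 in 35S::GRF5 and 6.48 ± 0.22 in wild type (SD, n = 3 each), a level 1.79-fold lower in 35S::GRF5. The difference of -0.84 (95% interval -1.21 to -0.47) had an adjusted p of 0.059 in limma and so missed the threshold. Its call depended on the variance model and the scaling: limma gave an adjusted p of 0.0314 with trend and robust estimation, 0.0267 with array weights and 0.0455 with arrays centred on their medians. With single arrays left out, the difference was -0.96 to -0.65, with an adjusted p of 0.0704 to 0.233 in limma.

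In all, 7 of 31 mitochondrial loci had groups that did not overlap, beside 21.7% of all loci. Of these, 6 were lower in 35S::GRF5, beside 8.45% of all loci, and 1 was higher, beside 13.2%. Apart from ATMG01220 these differences were small, and the loci are named after their values were seen. ATMG01130 read 4.996, 4.770 and 4.752 in 35S::GRF5 and 5.061, 5.062 and 5.167 in wild type. It was the other locus with an unadjusted p under 0.05, at -0.26 (-0.48 to -0.04) and an adjusted p of 0.243 in limma. The groups were 0.065 apart at their nearest values, through 35S::GRF5 replicate 1.

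ATMG00140 was one of the steadiest loci, with 3.852, 3.849 and 3.940 in 35S::GRF5 and 4.005, 4.025 and 4.065 in wild type. Only 2.6% of all loci had a smaller spread within groups, and the difference was -0.15 (-0.34 to 0.03). At ATMG00650 the values were 4.40, 4.37 and 4.37 in 35S::GRF5 and 4.60, 4.57 and 4.41 in wild type. The nearest arrays, 35S::GRF5 replicate 1 and wild type replicate 3, were 0.009 apart.

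ATMG00690, one of the higher-reading loci, had 5.44, 5.58 and 5.57 in 35S::GRF5 and 5.66, 5.59 and 5.77 in wild type. ATMG01410 had 3.89, 3.94 and 4.07 in 35S::GRF5 and 4.13, 4.09 and 4.08 in wild type. The single locus with separate groups that was higher in 35S::GRF5, ATMG00120, read 4.67, 4.60 and 4.64 there and 4.59, 4.37 and 4.52 in wild type. In each of these 3 loci the nearest values of the groups were at most 0.013 apart, and the adjusted p was 0.488 to 0.521 in limma.

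A further set of mitochondrial loci varied widely between arrays of one group. The pooled SD within groups lay above the 95th percentile of all loci (0.272) at 7 of 31 loci, or 22.6%. Among the 7894 loci whose mean lay in the range of the mitochondrial ones, 6.7% were above that mark. The median pooled SD was 0.134 at the mitochondrial loci and 0.125 at all loci. ATMG01220 was one of these 7, and the other 6 had groups that overlapped; of those 6, ATMG00840 and ATMG01370 are named after their values were seen.

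ATMG01330 read 6.19, 4.72 and 4.63 in 35S::GRF5 replicates 1 to 3 and 4.98, 5.20 and 4.74 in wild-type replicates 1 to 3. Its high value stood in 35S::GRF5 replicate 1 alone, and 99.8% of all loci had a smaller spread. The difference was 0.21 (-0.56 to 0.98) with that array and -0.30 without it, with an adjusted p of 0.327 in limma.

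ATMG00840 was also high in 35S::GRF5 replicate 1, at 6.44, with 5.48 and 5.39 in replicates 2 and 3 and 5.87, 5.91 and 6.25 in wild type. Here both remaining 35S::GRF5 arrays lay below every wild-type array. The difference was -0.24 over all arrays and -0.57 without 35S::GRF5 replicate 1 (adjusted p = 0.0858 in limma).

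ATMG01240 read 4.85, 4.62 and 4.64 in 35S::GRF5 and 5.43, 5.66 and 4.40 in wild type. Wild type replicate 3 was below all other arrays, while the other wild-type replicates were above them. The difference was -0.46 (-1.05 to 0.14), with an adjusted p of 0.448 in limma, and without wild type replicate 3 it was -0.84, with an adjusted p of 0.0416. It was -0.33 without wild type replicate 1 and -0.21 without wild type replicate 2.

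The largest positive difference among the mitochondrial loci was that of ATMG01260, at 0.32 (-0.09 to 0.72). Values were 3.81, 4.49 and 4.35 in 35S::GRF5 and 4.17, 3.88 and 3.66 in wild type, so replicate 1 of the line lay within the wild-type range and its other replicates above it. Without 35S::GRF5 replicate 1 the difference was 0.52, and without 35S::GRF5 replicate 2 it was 0.18; neither passed limma.

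ATMG00580 and ATMG01370 varied more within wild type than within 35S::GRF5. ATMG00580 read 5.17, 4.95 and 5.01 in 35S::GRF5 and 4.89, 4.49 and 5.28 in wild type. At ATMG01370 the values were 5.60, 5.96 and 6.02 in 35S::GRF5 and 6.28, 5.68 and 5.70 in wild type. In both, the 35S::GRF5 values fell inside or close to the wild-type range, and the differences were 0.16 and -0.02.

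**Figure D3:**
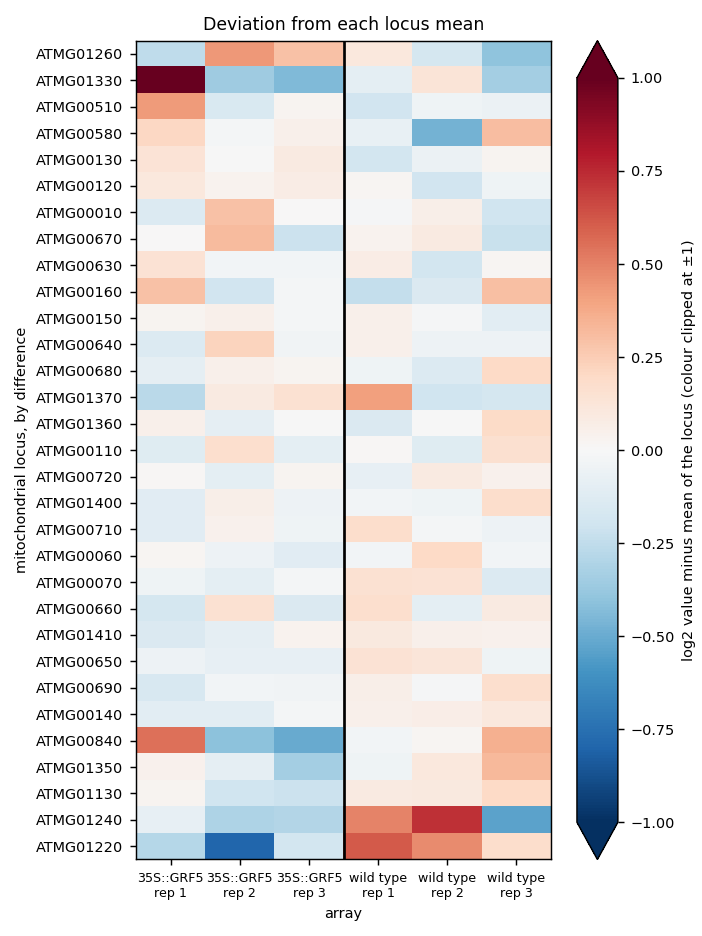
Deviation of each array's log2 value from the mean of the locus over 6 arrays (colour, clipped at 1 log2 unit), for the 31 mitochondrial loci (rows, ordered by difference) in the 35S::GRF5 arrays (left) and the wild-type arrays (right). ATMG01330 is high in 35S::GRF5 replicate 1 alone, ATMG01240 is low in wild type replicate 3, and the loci do not all have their highest value in the same array.

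Correlation between the loci was not computed. The 31 loci did not all have their highest value in the same array. Their median level was 4.56, 4.60 and 4.54 in 35S::GRF5 replicates 1 to 3 and 4.60, 4.51 and 4.52 in wild-type replicates 1 to 3, so the groups overlapped. Of the 31 loci, 6, 5 and 0 had their highest value in 35S::GRF5 replicates 1 to 3 and 8, 3 and 9 in wild-type replicates 1 to 3. These are 19.4%, 16.1% and 0% in 35S::GRF5 and 25.8%, 9.68% and 29.0% in wild type. Among all loci the highest value fell in 35S::GRF5 replicates 1 to 3 for 25.9%, 22.3% and 13.2% and in wild-type replicates 1 to 3 for 10.9%, 12.3% and 15.3%.

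The 9 loci listed as genes of known product differed little between the groups. Of these, 4 had a positive and 5 a negative difference, with a median of -0.03 and a range of -0.15 to 0.20, and 0 had an unadjusted p under 0.05 in limma. That median was 0.038 without wild type replicate 3 and 0.0049 without 35S::GRF5 replicate 3, so its sign rested on single arrays. The interval lay inside a 1.5-fold change in either direction for 9 of 9. This bounds array signal: 0 of the 9 means reached the median of all loci, and 2 lay below the 25th percentile. The set includes ATMG00580 and ATMG00650, given above.

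ATMG01360, the highest-reading of the listed loci, had 5.75, 5.61 and 5.69 in 35S::GRF5 and 5.55, 5.69 and 5.88 in wild type. All 3 arrays of the line fell inside the wild-type range, and the difference was -0.03 (-0.26 to 0.21). ATMG00070 read 5.16, 5.11 and 5.18 in 35S::GRF5 and 5.36, 5.35 and 5.07 in wild type. Wild type replicate 3 was the lowest of the 6 arrays there, and the difference was -0.11 (-0.33 to 0.12).

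ATMG00510 had the largest positive difference of the list, 0.20 (-0.11 to 0.51), from 5.25, 4.68 and 4.86 in 35S::GRF5 and 4.64, 4.79 and 4.77 in wild type. The value of 35S::GRF5 replicate 1 stood above the rest, and without that array the difference was 0.036. ATMG00160 read 4.78, 4.30 and 4.47 in 35S::GRF5 and 4.25, 4.34 and 4.79 in wild type. One array of each group was high there, and the difference was 0.06 (-0.31 to 0.42).

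ATMG00110 had 4.51, 4.80 and 4.54 in 35S::GRF5 and 4.64, 4.51 and 4.79 in wild type. ATMG00640 and ATMG00060 lay below the 25th percentile of all loci. ATMG00640 read 4.04, 4.39 and 4.13 in 35S::GRF5 and 4.22, 4.12 and 4.12 in wild type. At ATMG00060 the values were 3.96, 3.88 and 3.82 in 35S::GRF5 and 3.91, 4.14 and 3.91 in wild type. The differences of these 3 loci were -0.03, 0.03 and -0.10, and their groups overlapped.

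The remaining 11 loci, none of them on the list, had overlapping groups and adjusted p of 0.376 to 0.97 in limma; all but ATMG00130 are named to account for every locus, with their values known. ATMG01350 came closest, at -0.26 (-0.54 to 0.03), with 4.45, 4.32 and 4.07 in 35S::GRF5 and 4.37, 4.52 and 4.73 in wild type. ATMG00130 differed by 0.15 (-0.06 to 0.35), with 3.96, 3.81 and 3.91 in 35S::GRF5 and 3.64, 3.76 and 3.85 in wild type. ATMG00660 and ATMG00670, with ATMG01220 the loci of highest mean, differed by -0.11 and 0.07. ATMG00010 differed by 0.10, ATMG00630 by 0.06, ATMG00150 by 0.04, ATMG00680 by -0.01 and ATMG00720 by -0.04. ATMG00710 and ATMG01400 both differed by -0.07.

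The plastid genome, the other organelle genome of the plant cell, was read by 73 loci. Their means were far higher in the array's range, with a median of 11.68, and 71 of 73 were at or above the median of all loci. The median difference was 0.11 and 57 of 73 differences were positive, against -0.03 and 12 of 31 at the mitochondrial loci. Among all loci 56.2% of differences were positive. Leaving out wild type replicate 1 gave a plastid median of 0.18, leaving out wild type replicate 3 gave 0.070, and centring arrays on their medians gave 0.067. Of the plastid loci 1 passed limma, higher in 35S::GRF5, where 0.284% of all loci were called higher. At an unadjusted p under 0.05 there were 15 of 73, or 20.5%, where all loci gave 15.5%. Of these 14 were higher and 1 was lower, beside 9.49% of all loci higher and 5.97% lower. No test between the sets of loci was made. A stretch of nuclear chromosome 2 holds a copy of mitochondrial DNA, and probes may not separate the copies. The 7 loci of the table coded AT2G07600 to AT2G07850, from that part of the chromosome, differed by -0.08 to 0.22, and 0 passed limma or had an unadjusted p under 0.05. Which of them lie within the copied DNA was not analysed here.

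**Figure D4:**
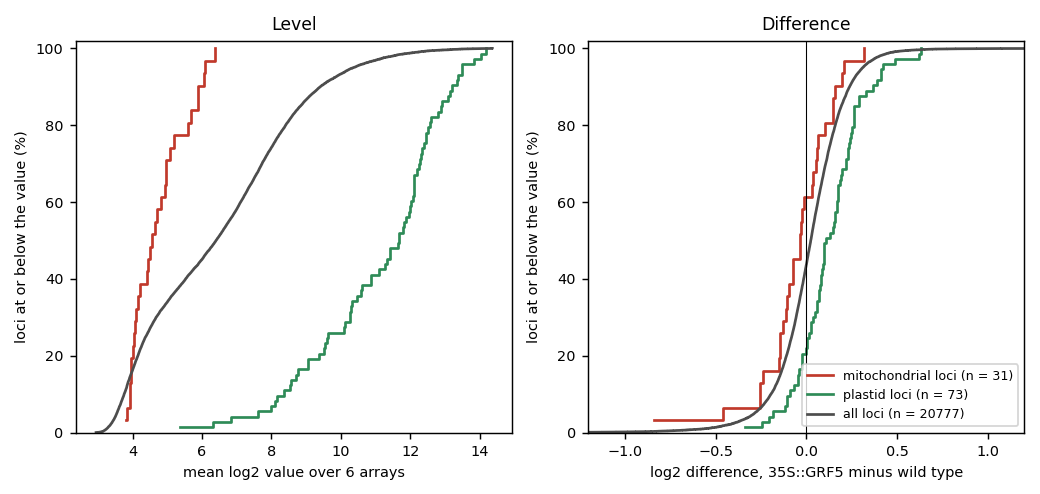
Cumulative share of loci (vertical axis, percent) by mean log2 value over 6 arrays (left) and by log2 difference, 35S::GRF5 minus wild type (right, drawn from -1.2 to 1.2), for mitochondrial loci (red), plastid loci (green) and all loci (grey). The mitochondrial curve ends at a level of 6.37, where the median plastid locus reads 11.68, and the median differences are -0.03, 0.11 and 0.02.

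Nuclear genes of mitochondrial function were read from lists. Entries that did not carry the listed name in the reference table were left out, though most of them were measured. The 44 genes that carried the name and were measured were kept. Of these 44, 1 fell and 0 rose in limma over all loci, where 0.77% of all loci were called. At an unadjusted p under 0.05 there were 5, or 11.4%, a share below the 15.5% of all loci. The median difference was -0.06. The gene that fell was NDB2 (AT4G05020), a type II NAD(P)H dehydrogenase on the outer face of the inner membrane, which passes electrons to ubiquinone without pumping protons.

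NDB2 read 6.12, 6.28 and 6.40 in 35S::GRF5 and 7.27, 6.94 and 7.13 in wild type. The groups were clearly apart, and the level was 1.80-fold lower in 35S::GRF5 (difference -0.85, 95% interval -1.10 to -0.59, adjusted p = 0.0139 in limma). Leaving out wild type replicate 1 (adjusted p = 0.0849), wild type replicate 3 (0.0536) or 35S::GRF5 replicate 2 (0.0505) ended the call, with differences of -0.77, -0.84 and -0.85.

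NDB2 was one of 13 measured genes listed under alternative respiration, whose oxidases and dehydrogenases bypass proton-pumping complexes. The list also holds PUMP1, which is not one of these enzymes. Of the 13 genes, 5 (38.5%) had an unadjusted p under 0.05 in limma, where all loci gave 15.5%. Of the 5, 1 was higher and 4 were lower, beside 9.49% of all loci higher and 5.97% lower. Groups did not overlap at 6 of the 13, 2 higher and 4 lower, beside 13.2% and 8.45% of all loci. NDC1 was higher by 0.15 with separate groups. PUMP1, AOX1B, AOX1C, AOX1D, AOX2, NDA2 and NDB4 differed by -0.11 to 0.017, with overlapping groups. Their median difference was -0.08. NDB1, a related enzyme of the same face, read 8.08, 8.04 and 7.99 in 35S::GRF5 and 7.59, 7.70 and 7.43 in wild type, a difference of 0.46 with an adjusted p of 0.0675 in limma. Its groups were apart in the direction opposite to NDB2. AOX1A, the main stress-inducible alternative oxidase, read 8.90, 9.11 and 9.19 in 35S::GRF5 and 9.72, 9.47 and 9.50 in wild type, and also had separate groups. AOX1A, NDB3 and NDA1, an enzyme of the inner face, differed by -0.50, -0.48 and -0.58 (adjusted p = 0.0786, 0.0691 and 0.0906 in limma) and were named after their values were seen. With trend and robust estimation AOX1A, NDA1 and NDB1 passed as well (0.0375, 0.049 and 0.0499), and NDA1 passed without 35S::GRF5 replicate 3 (0.0451). NDB1 also passed over loci above the median level (0.0481).

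No kept nuclear gene of the respiratory complexes passed limma. Some measured genes of complexes I, III, IV and V were left out for lack of the listed name. Of 8 complex I genes, 6 had a negative difference, with a median of -0.08. Those of smallest p were GAMMA CAL2 and GAMMA CA3, of the carbonic anhydrase domain of plant complex I, at -0.36 and -0.14 (adjusted p = 0.328 and 0.461 in limma). Without 35S::GRF5 replicate 1 GAMMA CAL2 differed by -0.56 (adjusted p = 0.062 in limma). Of 3 complex II genes, SDH2-1 and SDH2-2, which encode its iron-sulphur subunit, differed by -0.18 and 0.09.

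The 3 genes kept from the list of complex III and cytochrome c had negative differences, with a median of -0.19. Their groups did not overlap, where 8.45% of all loci were lower without overlap. MPPALPHA1, MPPALPHA2, CYC1-1, CYC1-2, QCR7-1 and QCR7-2 of that list were measured but left out for lack of the listed name. MPPBETA, a core subunit of complex III that also cleaves targeting peptides, differed by -0.19 and the electron carrier gene CYTC-2 by -0.33 (adjusted p = 0.335 and 0.399 in limma). CYTC-2 was low in 35S::GRF5 replicate 2, at 7.46, with 8.19 and 8.15 in replicates 1 and 3; leaving that array out gave a difference of -0.095. COX17, a copper chaperone of complex IV, and the subunit gene COX6B differed by 0.13 and -0.09. The ATP synthase genes ATPQ and ATP3 differed by -0.13 and -0.09.

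The kept factors for mitochondrial RNA had small differences. All 8 kept genes of splicing and processing had a positive one, from 0.01 to 0.15 with a median of 0.10. With arrays centred on their medians 6 were positive and 2 negative, a count added after the values were seen. NMAT2, NMAT4 and PNPASE of that list were measured but left out for lack of the listed name. At an unadjusted p under 0.05 there were 0 of the 8. WTF9 and nMAT1, which act in the splicing of group II introns, differed by 0.15 and 0.11 (adjusted p = 0.568 and 0.651 in limma). Of 3 kept genes of mitochondrial stress signalling, NAC13 and BCS1 differed by -0.18 and -0.37, and 0 passed. UPOX, HSP23.5 and AT12CYS of that list were measured but left out for lack of the listed name. BCS1 differed by -0.66 without wild type replicate 2 and by -0.12 without wild type replicate 1, and NAC13 by -0.10 without wild type replicate 1.

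**Figure D5:**
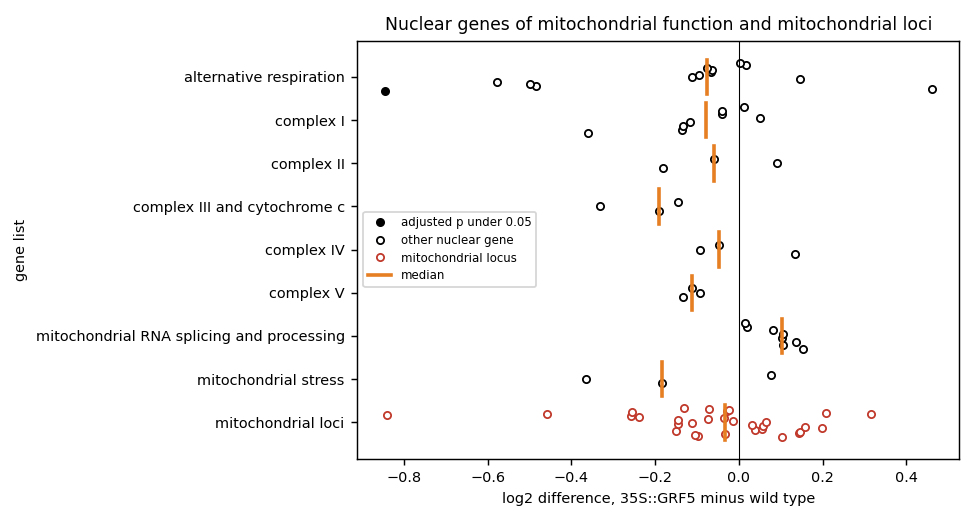
Log2 difference, 35S::GRF5 minus wild type (horizontal axis), of each kept nuclear gene by list and of the 31 mitochondrial loci (bottom row, red), with an orange bar at the median of each set. Filled circles mark an adjusted p under 0.05, which holds for NDB2, at -0.85, among the genes drawn.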

How the data were processed

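RNA of 6 seedling samples was hybridised to ATH1 arrays. The submitters' processing notes name RMA, with no version, and on that basis the authors' deposited table holds RMA values on a log2 scale. The map from probes to loci and the arrays normalised together were not stated in the sources used here. No value was missing, and no batch or scan date was given. Arrays hold 1 value per locus with no count behind it, so their number limits the precision.

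Groups were compared with limma 3.58.1 in R 4.3.3 (linear model with eBayes moderation, two-sided), adjusted over all 20777 loci at a threshold of 0.05, with no filter on low values. Each difference is 35S::GRF5 minus wild type. Also run were a fit with replicate number as a block, filters at the 25th percentile and the median of mean level, arrays centred on their medians, quantile normalization, trend and robust estimation, array weights, and leaving out each array.

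Members and lists were chosen with earlier results of these data known. Named were the 9 listed loci, the 3 highest and 3 lowest differences of the others, every called one, and from each nuclear list its called genes and the 2 of smallest p; further loci were named with their values known. Of 73 nuclear entries, 26 did not carry the listed name in the TAIR10.1 table and were left out, though most of them were measured. A further 3 carried the name and were not measured. Both entries of the list of mitochondrial RNA polymerases were among the 26. The fit was tested on simulated data in 5 runs over 20777 loci, where 0.0641% of unchanged loci were called. P-values weigh each group difference against the spread between arrays within groups. They cover a single overexpressing line.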

Additional observations from a re-analysis of the deposited data

How the results depend on the processing

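The count of all called loci was 160, and 252 with trend and robust estimation, 294 with array weights and 17 to 186 with single arrays left out: 63 without 35S::GRF5 replicate 2, 69 without 35S::GRF5 replicate 3, and 17, 96 and 50 without wild-type replicates 1, 2 and 3. Centring the arrays on their medians gave 171 called loci and moved the median of all loci to -0.01. With the replicate number as a block 114 loci were called, 0 of them mitochondrial, ATMG01220 had an adjusted p of 0.0793 in limma, and NDB2 kept its call. Deviations of same-numbered arrays correlated at -0.053, 0.0583 and -0.106, so the numbers were not taken as pairs. The count of lower mitochondrial loci was 1, ATMG01220, with arrays centred, with trend and robust estimation and with array weights, and 0 to 1 with single arrays left out, the 1 being ATMG01240 without wild type replicate 3; 0 were called higher in the alternatives run. No mitochondrial locus remained over loci above the median level, and 19 over those above the 25th percentile. The median of the 9 listed loci was -0.029 over all arrays, 0.010 with array weights and -0.069 to 0.038 with single arrays left out. The median mitochondrial difference was -0.075 to -0.022 with single arrays left out; that of the 22 loci not listed was -0.05 over all arrays, -0.13 over loci above the 25th percentile, where 12 remained, -0.092 with arrays centred, and -0.10 to -0.044 with single arrays left out. Nuclear list genes called were 1, and 2 over loci above the median level, 4 with trend and robust estimation and 0 to 2 with single arrays left out. Small differences turned in sign. With arrays centred ATMG00640 differed by -0.0062. With array weights ATMG01360 differed by 0.010 and ATMG01330 by -0.037. With single arrays left out, ATMG00110 ran from -0.13 to 0.038, ATMG00160 from -0.078 to 0.22, ATMG00580 from -0.038 to 0.35, ATMG00640 from -0.069 to 0.11, ATMG01360 from -0.11 to 0.059, ATMG01330 from -0.30 to 0.48 and SDH2-2 from -0.0019 to 0.17. A fit without 1 array has fewer values, and other causes of these changes were not tested. Of all 31 loci, 18 kept one sign in every alternative run.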
